A study of Homo sapiens with 36 samples.

Results

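The acute response of WI-38 cells to doxorubicin (DXR) was read as the comparison of the 2 libraries of DXR-treated cells taken at the end of treatment (DDR-Sen D0) with the 2 libraries of untreated cells (Ctrl). These are 4 of the 36 small RNA libraries of the series, which cover 18 conditions with 2 libraries each, and they were chosen by their labels alone. All 1508 miRNA rows of the table were considered, and 360 of them had enough counts to be tested. WI-38 is a strain of normal human lung fibroblasts with a limited lifespan, so every library comes from the same strain. Ctrl cells were young, proliferating and untreated. DDR-Sen D0 cells had received 250 nM DXR for 24 h and were harvested before any recovery. The other treatment of the series, the detergent SDS, which injures the outer cell membrane, was also given for 24 h, and its libraries at the same point (PMD-Sen D0) served as a second reference. The labels call the replicates biological, without saying whether they came from separate cultures, so the p-values measure a spread between libraries. In the main fit this spread is shared over the replicate pairs of all 18 conditions and is not that of the compared pairs alone. Whether Ctrl cells received a vehicle or were harvested on the same day is not given in the sources used here.

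A miRNA is cut from a hairpin in a longer transcript by Drosha and then Dicer, and either arm of the hairpin (5p or 3p) can be loaded into the silencing complex, where the seed, bases 2 to 8 from the 5′ end, pairs with target mRNAs. DXR poisons topoisomerase II and breaks DNA, which stabilises p53. The miR-34 genes are direct transcriptional targets of p53, p53 also promotes Drosha processing of some hairpins, and the miR-17 family and the pair miR-221 and miR-222 favour proliferation by repressing cell cycle inhibitors such as CDKN1A and CDKN1B.

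The mature sequences of the miRNAs that carry the comparison are given with the seed in capitals, as listed by RefSeq on GRCh38.p14. Of the 14 miRNAs that passed both thresholds explained further on, 12 had a sequence in that table, and miR-34c-5p and miR-887-3p are given by name only. The higher ones come first.
miR-212-5p: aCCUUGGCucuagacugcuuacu
miR-3180-3p: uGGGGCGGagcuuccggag
miR-182-5p: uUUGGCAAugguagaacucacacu
miR-664a-3p: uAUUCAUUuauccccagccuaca
miR-337-5p: gAACGGCUucauacaggaguu
miR-126-3p: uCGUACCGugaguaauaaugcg
miR-30e-3p: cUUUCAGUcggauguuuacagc
The lower ones follow.
miR-4521: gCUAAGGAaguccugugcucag
miR-296-3p: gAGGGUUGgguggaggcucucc
miR-1260b: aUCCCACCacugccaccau
miR-23b-5p: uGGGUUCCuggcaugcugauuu
miR-487b-5p: gUGGUUAUcccuguccuguucg
The p53 target miR-34a-5p and the abundant pair miR-221-3p and miR-222-3p, which share a seed, changed by less than 2-fold and are shown for that reason.
miR-34a-5p: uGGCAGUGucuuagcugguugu
miR-221-3p: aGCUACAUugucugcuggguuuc
miR-222-3p: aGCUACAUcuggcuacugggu
No 2 of the 12 miRNAs past both thresholds had the same seed. Among them, 3 shared it with 1 other tested miRNA, and none of those partners passed the test. They were miR-30a-3p for miR-30e-3p (log2 fold change 0.15), miR-23a-5p for miR-23b-5p (0.15) and miR-487a-5p for miR-487b-5p (-0.16).

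The 4 libraries held 223548 and 327354 counts for Ctrl and 490950 and 311049 for DDR-Sen D0, against 81668 to 1933435 over the 36. The 10 most abundant miRNAs took 51.0% to 55.6% of each of the 4 libraries. Levels are given in CPM, counts scaled to a common library total after TMM normalization. The log2 CPM of the tested miRNAs correlated between replicates with r of 0.976 in Ctrl and 0.978 in DDR-Sen D0, across miRNAs, which are not independent. A count of 3, taken as the detection floor, corresponds to 6.44 to 12.9 CPM in these libraries and covers counting error only. The table is of bulk RNA, so fewer cells of a type and less RNA per cell cannot be told apart, and a CPM is a level relative to the other miRNAs of the library.

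At the end of DXR treatment few miRNAs differed from untreated cells by more than 2-fold, and those that did were mostly scarce. With an unadjusted p below 0.05 and a log2 fold change beyond 1, the thresholds of the study, edgeR's quasi-likelihood test gave 8 higher miRNAs (2.22% of the 360 tested) and 6 lower ones (1.67%). Among the 8 higher were miR-34c-5p and miR-126-3p at 2.32-fold and 2.36-fold, and among the 6 lower were miR-4521 at 2.39-fold and miR-487b-5p at 3.03-fold. Of these 14, 11 had a mean below 100 CPM in both groups. At any fold change, 34 miRNAs (9.44%) had p below 0.05, 19 higher and 15 lower. The 20 that moved less than 2-fold included far more abundant members, such as miR-222-3p, miR-24-3p and miR-31-5p.

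None of the 360 passed a Benjamini-Hochberg adjusted p of 0.05 in edgeR, where the smallest was 0.265. DESeq2 gave 0 as well, with a smallest adjusted p of 0.140 on all libraries and 0.397 on the 4 libraries, and 31 and 17 miRNAs at an unadjusted p below 0.05. No single miRNA is therefore shown to differ once the number of tests is counted. Higher, lower and passing are used here for an unadjusted p below 0.05, and the adjusted p of the same edgeR fit is printed beside the main values. Effects of DXR itself and of the growth state of the cells cannot be told apart in this design.

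The balance of higher and lower calls depended on the scaling. With DESeq2's size factors in place of TMM, 6 were higher and 9 lower past both thresholds, and with total counts 6 and 10. At any fold change the split of 19 and 15 became 14 and 20 with size factors and 12 and 23 with total counts. The median log2 fold change of all 360 moved from 0.02 with TMM to -0.01 and -0.05. Most estimates were small, with a median absolute log2 fold change of 0.33 and 88.6% of the miRNAs within 1.

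**Figure D1:**
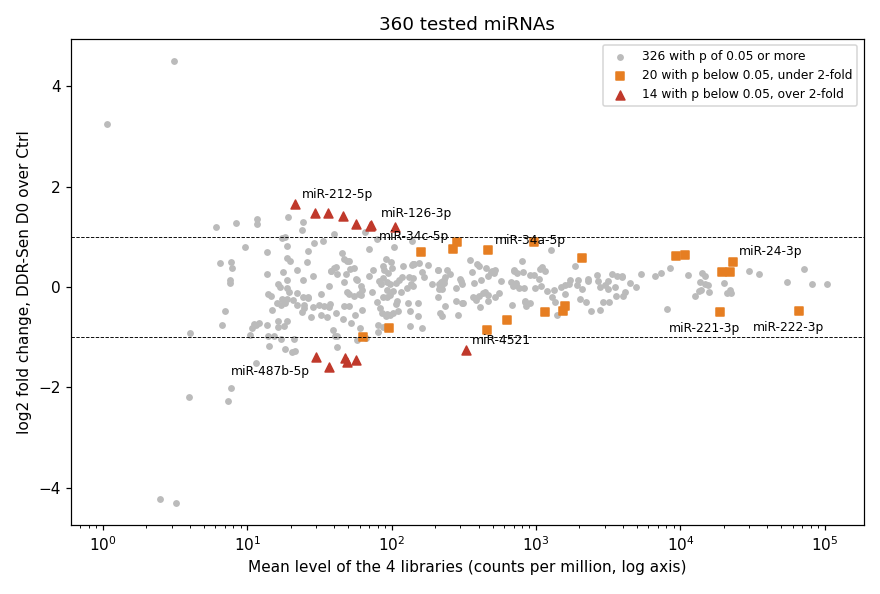
Each of the 360 tested miRNAs is placed by its mean level over the 4 libraries (CPM, log axis) and its log2 fold change of DDR-Sen D0 over Ctrl. Triangles are the 14 miRNAs past both thresholds, squares the 20 with p below 0.05 and less than 2-fold change, and dashed lines mark 2-fold. All but miR-4521 among the lower triangles lie at the scarce end of the axis, while miR-221-3p, miR-222-3p and miR-24-3p are abundant and moved little.

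The p53-linked miRNAs are described first. miR-34a-5p, a repressor of cell cycle genes such as CDK6 and of BCL2, had 352 and 352 CPM in Ctrl and 502 and 669 CPM in DDR-Sen D0. Both treated libraries were above both Ctrl libraries, and the log2 fold change was 0.73 ± 0.28 (SE), or 1.66-fold (edgeR adjusted p = 0.415). Without Ctrl replicate 1 it was 0.72 and without DDR-Sen D0 replicate 2 it was 0.55, and neither passed. miR-34c-5p, from the second miR-34 gene, had 25.8 and 57.2 CPM in Ctrl and 118 and 81.0 CPM in DDR-Sen D0. Its counts were 6 and 20 against 55 and 27, the log2 fold change was 1.21 ± 0.51 (SE; edgeR adjusted p = 0.504), and it is the only 1 of the p53-linked miRNAs to pass 2-fold as well.

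The list of p53-induced miRNAs held 8 names, and 7 of its 15 rows in the table were tested. Of the 7, 2 were higher (miR-34a-5p and miR-34c-5p) and none lower, beside 19 higher and 15 lower of all 360, and the median log2 fold change was 0.51, beside 0.02. miR-194-5p had 81.6 and 82.9 CPM in Ctrl and 112 and 123 CPM in DDR-Sen D0 and did not pass the test (log2 fold change 0.51 ± 0.39, adjusted p = 0.725). miR-107 (0.34 ± 0.28), miR-34c-3p (0.70 ± 0.91) and miR-34b-3p (0.34 ± 0.81) had estimates above 0 and miR-192-5p (-0.14 ± 0.53) had one below 0. miR-34b-3p was at 0 and 13 counts in the 2 Ctrl libraries, so its estimate rests on 1 of them. The minor arm miR-34a-3p was not tested, with 0 and 0 counts in Ctrl and 5 and 1 in DDR-Sen D0.

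The miRNAs whose Drosha processing p53 promotes did not pass the test. Of 6 listed, 4 were tested and 0 had p below 0.05. miR-143-3p was at 12835 and 13618 CPM in Ctrl and 15352 and 12852 CPM in DDR-Sen D0, groups that overlap. The estimates of the 4 ran from -0.06 for miR-145-5p to 0.25 for miR-199a-3p, which the table joins with the identical miR-199b-3p, and the median was 0.11. For miR-143-3p the 95% interval of the log2 fold change was -0.66 to 0.85, which includes the estimate of miR-34a-5p.

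Of the other 7 miRNAs past both thresholds on the higher side, miR-212-5p had the largest estimate and the fewest counts. It shares a locus with miR-132 at chr17:2050271-2050380 (GRCh38, minus strand), and no named GENCODE gene other than miRNA genes overlaps its hairpin. Its counts were 2 and 4 in Ctrl and 14 and 12 in DDR-Sen D0, which are 8.59 and 11.4 against 30.0 and 36.0 CPM. The log2 fold change was 1.65 with a 95% interval of 0.14 to 3.16 (edgeR adjusted p = 0.504). All 3 tested miRNAs from the same locus had estimates above 0 (0.35 to 1.05), and none passed.

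miR-182-5p, which belongs with miR-96 and miR-183 on chromosome 7, had 12.9 and 17.2 CPM in Ctrl and 27.9 and 60.02 CPM in DDR-Sen D0 (log2 fold change 1.47 ± 0.69, adjusted p = 0.504). miR-3180-3p, which 4 hairpins on chromosome 16 encode and which is counted here in a row that joins it with miR-3180, had 17.2 and 20.0 CPM in Ctrl and 30.0 and 78.0 CPM in DDR-Sen D0 (1.48 ± 0.71, adjusted p = 0.504). A separate row for miR-3180-3p alone was at 0 in all 4 libraries. For miR-182-5p and the joined row, the 2 treated libraries lay apart by over 2-fold, yet above both Ctrl libraries. The other arm, miR-3180-5p, had 0 and 0 counts in Ctrl and 3 and 2 in DDR-Sen D0, at or under the floor in each library, so no fold is given.

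miR-126-3p, encoded in an intron of EGFL7 at chr9:136670602-136670686 and known as an endothelial miRNA, had 43.0 and 42.9 CPM in Ctrl and 90.1 and 114 CPM in DDR-Sen D0. Its log2 fold change was 1.24 ± 0.43 (edgeR adjusted p = 0.377), the smallest p of the 8 higher miRNAs. miR-30e-3p, from an intron of NFYC at chr1:40754355-40754446, had 47.3 and 80.1 CPM in Ctrl and 200 and 96.0 CPM in DDR-Sen D0 (1.20 ± 0.45, adjusted p = 0.415). The major arm, miR-30e-5p, was at 864 and 1021 CPM in Ctrl and 1743 and 1419 CPM in DDR-Sen D0, with an estimate of 0.74 ± 0.40 that did not pass (adjusted p = 0.594).

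For miR-337-5p and miR-664a-3p, as for miR-30e-3p, the groups of the other arm did not overlap either. Such separation, in either direction, was seen in 150 of the 360 tested miRNAs (41.7%). The other arms of miR-34c-5p, miR-487b-5p, miR-212-5p, miR-23b-5p and miR-296-3p had groups that overlap. miR-337-5p, in the imprinted 14q32 cluster at chr14:100874493-100874585, had 21.5 and 42.9 CPM in Ctrl and 70.8 and 90.0 CPM in DDR-Sen D0 (1.25 ± 0.60, adjusted p = 0.504), and miR-337-3p had 98.8 and 145.9 against 236 and 162 CPM (0.69 ± 0.32, adjusted p = 0.504), which was 0.43 without Ctrl replicate 1 and 0.40 without DDR-Sen D0 replicate 1, neither passing. miR-664a-3p had 21.5 and 28.6 CPM in Ctrl and 83.7 and 51.0 CPM in DDR-Sen D0 (1.41 ± 0.58, adjusted p = 0.467), and miR-664a-5p had 17.2 and 11.4 against 38.6 and 30.0 CPM (1.30 ± 0.66, adjusted p = 0.531). The miR-664a hairpin, at chr1:220200538-220200619 in an intron of RAB3GAP2, overlaps the snoRNA SNORA36B on the same strand, and reads from the snoRNA cannot be told apart from miRNA reads in the table.

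**Figure D2:**
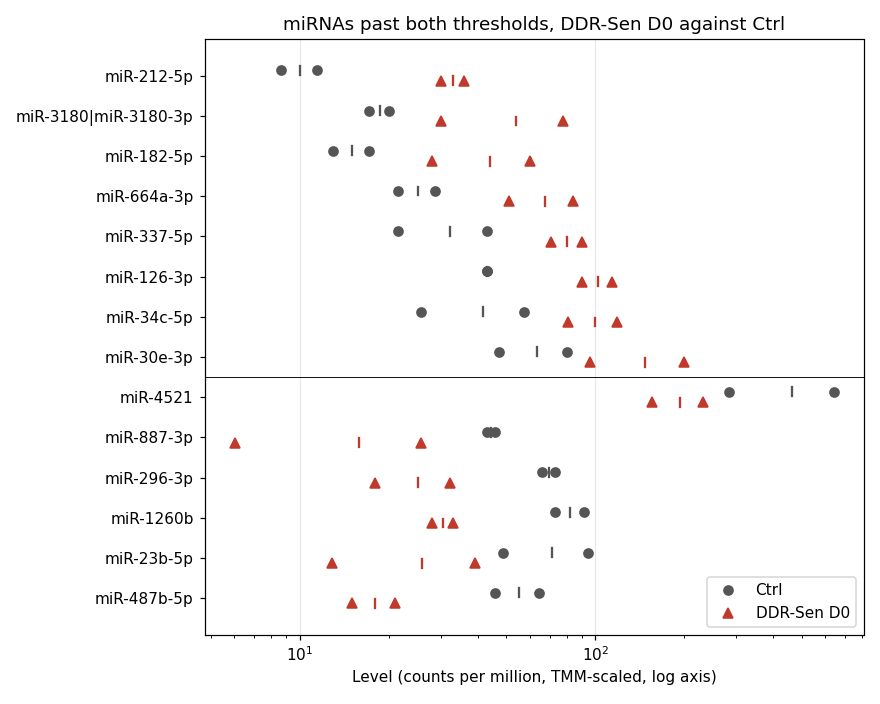
Level of each of the 14 miRNAs past both thresholds in every library (CPM, log axis), with circles for the 2 Ctrl libraries, triangles for the 2 DDR-Sen D0 libraries and a short bar at each mean. The 8 miRNAs above the line were higher and the 6 below it lower, and in each the circles and triangles do not overlap.

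Among the 6 lower miRNAs, miR-4521 was the most abundant and had the smallest p of the whole table. Its levels were 284 and 641 CPM in Ctrl and 232 and 156 CPM in DDR-Sen D0, with a log2 fold change of -1.26 ± 0.33 (SE; edgeR adjusted p = 0.265). The 2 Ctrl libraries differed by over 2-fold, and without Ctrl replicate 2 the log2 fold change was -0.49, which did not pass. It lies at chr17:8186945-8187004 on the plus strand.

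miR-487b-5p, a minor arm in the 14q32 cluster, fell from 64.5 and 45.8 CPM to 15.0 and 21.0 CPM (log2 fold change -1.60 ± 0.46, adjusted p = 0.298). It kept both thresholds whichever of the 4 libraries was left out (-1.80 to -1.34). The major arm of the same hairpin, miR-487b-3p, had 2733 and 2451 CPM in Ctrl and 3389 and 2242 CPM in DDR-Sen D0, and its estimate was 0.12 ± 0.20 (adjusted p = 0.892). Of the 20 tested arms and neighbours within 10000 bases, 14 had estimates above 0 and 6 below, beside 187 and 173 of all 360. Only miR-485-3p passed, 1 of the 20 beside 34 of 360 (9.44%) over the table, and it was lower.

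miR-23b-5p gave the same contrast of arms. It had 94.5 and 48.6 CPM in Ctrl and 12.9 and 39.0 CPM in DDR-Sen D0 (-1.49 ± 0.50, adjusted p = 0.377), whereas miR-23b-3p had 3059 and 4030 against 3941 and 3187 CPM, with an estimate of 0.01 ± 0.21. The hairpin lies in an intron of AOPEP at chr9:95085208-95085304. Whether the 2 arms of a hairpin differed in their response was not tested.

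miR-296-3p had 73.0 and 65.8 CPM in Ctrl and 32.2 and 18.0 CPM in DDR-Sen D0 (-1.42 ± 0.57, adjusted p = 0.435), from the hairpin at chr20:58817615-58817694. miR-887-3p, from an intron of FBXL7, had 43.0 and 45.8 CPM in Ctrl and 25.8 and 6.00 CPM in DDR-Sen D0 (-1.39 ± 0.61, adjusted p = 0.504). The Ctrl pairs of both were close together and the treated pairs wide apart. miR-1260b had 73.0 and 91.5 CPM in Ctrl and 27.9 and 33.0 CPM in DDR-Sen D0 (-1.45 ± 0.52, adjusted p = 0.377), with groups that are tight and far apart. Its hairpin lies at chr11:96341438-96341526, opposite an exon of MAML2.

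Most of these calls rested on both replicates of a group. Without Ctrl replicate 1, miR-23b-5p, miR-30e-3p, miR-34c-5p and miR-337-5p fell under 2-fold (log2 fold changes of -0.98, 0.86, 0.78 and 0.88), and miR-664a-3p, miR-3180-3p, miR-182-5p and miR-212-5p kept 1.22 to 1.48 without passing. Without Ctrl replicate 2, calls were also lost for miR-1260b (-1.22), miR-887-3p (-1.29), miR-3180-3p (1.65), miR-182-5p (1.76) and miR-212-5p (1.94). Without DDR-Sen D0 replicate 1 the calls of miR-23b-5p (-0.81), miR-1260b (-1.31), miR-30e-3p (0.57), miR-34c-5p (0.92), miR-337-5p (1.44), miR-664a-3p (1.01) and miR-212-5p (1.80) were lost. Without DDR-Sen D0 replicate 2 those of miR-4521 (-0.98), miR-296-3p (-1.06), miR-887-3p (-0.75), miR-337-5p (1.11), miR-3180-3p (0.70), miR-182-5p (0.89) and miR-212-5p (1.56) were lost. miR-126-3p (1.10 to 1.42) and miR-487b-5p kept the call in each of these 4 fits. For thinning to equal totals, each compared library was cut at random to the total of the shallowest of the 36 libraries, 81668 counts. The other libraries kept their depth. The 4 libraries thereby lost most of their counts, so the thinned fit shows the effect of low depth and not only of unequal depth. In it, 5 of the 14 kept the call, miR-126-3p (1.85), miR-23b-5p (-2.30), miR-887-3p (-2.11), miR-664a-3p (4.04) and miR-212-5p (6.57), and the last 2 are fitted values that bound nothing. The other 9 lost it, among them miR-487b-5p (-1.96), miR-4521 (-0.70) and miR-30e-3p (0.25).

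Among miRNAs above 10000 CPM, the smallest p-values were those of miR-221-3p and miR-222-3p, which repress the CDK inhibitor CDKN1B and come from adjacent hairpins of MIR222HG on chromosome X. miR-222-3p, the third most abundant miRNA in Ctrl, had 70088 and 84870 CPM there and 56055 and 54963 CPM in DDR-Sen D0. miR-221-3p had 19560 and 24836 CPM in Ctrl and 16308 and 15067 CPM in DDR-Sen D0. Both were lower by about the same factor, with log2 fold changes of -0.48 ± 0.16 (adjusted p = 0.377) and -0.50 ± 0.16 (adjusted p = 0.377), or 1.40-fold and 1.42-fold. Of the 4 tested arms, 2 were lower and none higher, beside 15 lower and 19 higher of all 360, with a median of -0.43 beside 0.02. The minor arms miR-221-5p (-0.15 ± 0.22) and miR-222-5p (-0.39 ± 0.81) did not pass, and the sign of miR-222-5p turned after thinning the libraries to equal totals (1.30). Without Ctrl replicate 2, the log2 fold changes of miR-222-3p and miR-221-3p were -0.29 and -0.27, and without DDR-Sen D0 replicate 2 that of miR-221-3p was -0.41, and none of these passed.

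The other abundant miRNAs that passed were named after their values were seen. miR-23a-3p, miR-24-3p and miR-27a-3p, which the MIR23AHG transcript on chromosome 19 carries together, were all higher. miR-24-3p, which a second hairpin on chromosome 9 also encodes, had 19126 and 18835 CPM in Ctrl and 21620 and 32349 CPM in DDR-Sen D0 (log2 fold change 0.51 ± 0.20, adjusted p = 0.435). miR-27a-3p had 1736 and 1596 against 2412 and 2581 CPM (0.58 ± 0.27, adjusted p = 0.504), and miR-23a-3p had 19405 and 20142 against 25271 and 23598 CPM (0.31 ± 0.15, adjusted p = 0.515). The related miR-23b-3p and miR-27b-3p from chromosome 9, which share their seeds, had estimates of 0.01 ± 0.21 and 0.17 ± 0.28, and the difference between the pairs was not tested. These calls were weak, since that of miR-27a-3p was lost without any 1 of the 4 libraries (0.57 to 0.65), that of miR-23a-3p without Ctrl replicate 1 (0.26), Ctrl replicate 2 (0.38) or DDR-Sen D0 replicate 1 (0.27), and that of miR-24-3p without Ctrl replicate 1 (0.51) or DDR-Sen D0 replicate 2 (0.22).

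miR-31-5p, from an intron of MIR31HG on chromosome 9, had 7962 and 6810 CPM in Ctrl and 8538 and 14206 CPM in DDR-Sen D0 (0.62 ± 0.25, adjusted p = 0.435), and miR-22-3p had 8078 and 8830 against 9596 and 16724 CPM (0.64 ± 0.29, adjusted p = 0.504). In both, DDR-Sen D0 replicate 2 was far above the other treated library, and without it the estimates were 0.25 and 0.22. Calls were also lost without Ctrl replicate 2 for miR-31-5p (0.56) and without Ctrl replicate 1 for miR-22-3p (0.57). miR-335-5p, from an intron of MEST, had 636 and 712 CPM in Ctrl and 1273 and 1251 CPM in DDR-Sen D0 (0.90 ± 0.32, adjusted p = 0.377), pairs that are tight and well apart, although without Ctrl replicate 1 the estimate of 0.81 did not pass. miR-29b-1-5p had 653 and 532 against 399 and 252 CPM (-0.85 ± 0.31, adjusted p = 0.377), and -0.53 without DDR-Sen D0 replicate 2 did not pass. The others with p below 0.05 were miR-374b-5p, miR-337-3p, miR-486-5p and miR-103a-3p, which were higher, and miR-28-3p, miR-484, miR-485-3p, miR-758-3p, miR-1303 and miR-1307-3p, which were lower, with log2 fold changes between -0.99 and 0.90. Each of these 10 lost p below 0.05 without at least 1 of the 4 libraries.

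The 10 most abundant miRNAs of Ctrl are given next. let-7a-5p, miR-100-5p and miR-21-5p took 12.5% and 9.05%, 8.45% and 8.45%, and 6.33% and 6.90% of the counts of the 2 Ctrl libraries, and 12.8% and 8.41%, 8.56% and 8.30%, and 8.65% and 7.51% of those of DDR-Sen D0. Of these 10, only miR-222-3p and miR-221-3p had p below 0.05, and they went from rank 3 and 10 to rank 5 and 17 by mean level. miR-125a-5p went from rank 8 to 12 without passing, and the other 7 stayed among the first 10.

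In the miR-17 clusters and the inflammation-linked list no member passed the test. Of the 13 tested members of the miR-17 clusters, which MYC and E2F factors activate and some of which repress CDKN1A, 0 had p below 0.05. Their estimates were below 0 in 11 of 13 under each of the 3 scalings, beside 173 of all 360 with TMM, with a median of -0.21 (-0.25 with size factors, -0.27 with total counts). miR-92a-3p, the most abundant, had 20986 and 22802 CPM in Ctrl and 20583 and 19985 CPM in DDR-Sen D0 (-0.11 ± 0.23), and miR-93-5p had 4353 and 4162 against 4005 and 3493 CPM (-0.18 ± 0.16). In 7 of the 13 both treated libraries lay below both Ctrl libraries, a pattern that, in either direction, 150 of the 360 miRNAs (41.7%) showed. Over the table it was above in 68 and below in 82, and all 14 miRNAs past both thresholds had it.

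The inflammation-linked list, miRNAs that NF-kB induces, had 6 tested members and 0 with p below 0.05 (median 0.30). miR-155-5p, a repressor of immune and cell cycle mRNAs, had 8830 and 9908 CPM in Ctrl and 6490 and 7280 CPM in DDR-Sen D0. Both treated libraries were below both Ctrl libraries, and the log2 fold change of -0.44 ± 0.25 had a 95% interval of -0.96 to 0.07 (adjusted p = 0.594). miR-146a-5p had 47.3 and 37.2 CPM in Ctrl and 85.9 and 93.03 CPM in DDR-Sen D0, with an estimate of 1.09 ± 0.53 that did not pass (adjusted p = 0.515). miR-21-5p (0.36 ± 0.34), miR-132-3p (0.35 ± 0.34) and miR-146b-5p (0.25 ± 0.30) had estimates above 0.

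The miR-29, miR-30, let-7 and miR-15/16 families had 0 members with p below 0.05. All 3 members of the miR-29 family, which represses collagen mRNAs, had both treated libraries above both Ctrl libraries. Over the table, 68 of 360 did. miR-29a-3p, the abundant one, had 12281 and 13223 against 15271 and 15667 CPM (0.28 ± 0.25). The others were scarce, with 5 and 18 against 25 and 20 counts for miR-29b-3p. miR-29c-3p had 1.5 and 2 against 7 and 3 counts. The 5 members of the miR-30 family 5p arms had a median of 0.35, from -0.07 for miR-30d-5p to 0.74 for miR-30e-5p. The 9 let-7 members had a median of 0.05, which was -0.03 with total counts, and the 5 members of the miR-15/16 family had one of -0.03. In the imprinted 14q32 cluster, 68 arms were tested, 2 were higher (miR-337-5p and miR-337-3p) and 3 lower (miR-487b-5p, miR-485-3p and miR-758-3p), a share below the 34 of 360 (9.44%) of the whole table, and the median was 0.06, which was -0.02 with total counts.

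**Figure D3:**
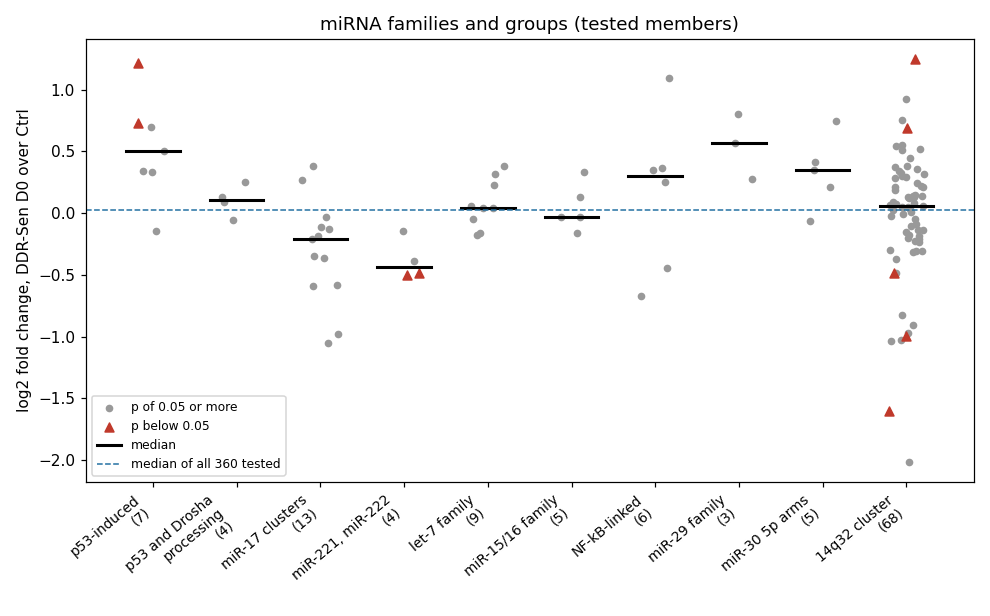
Log2 fold change of DDR-Sen D0 over Ctrl for the tested members of 10 families and groups, with their number in parentheses, red triangles for members with p below 0.05, a black bar at each median and a dashed line at the median of all 360. The p53-induced group lies above the line at its median of 0.51 and the miR-221 and miR-222 arms below it at -0.43.

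The markers of the labelled cell type were present. All 8 fibroblast miRNAs were tested, none had p below 0.05, and together they reached 164672 to 169896 CPM (of the library total, without TMM) in each of the 4 libraries. Most of this was miR-100-5p and miR-125b-5p, at 8.45% and 5.52% of the counts of Ctrl replicate 1. Among markers of other cell types, the epithelial list summed to 30.5 to 76.0 CPM in Ctrl and 67.2 to 80.4 in DDR-Sen D0, with 2 of its 7 miRNAs at 0 in all 4 libraries and 1 tested. The endothelial list summed to 45.8 and 58.2 in Ctrl and 87.6 and 125.4 in DDR-Sen D0, which was nearly all miR-126-3p, since its other arm miR-126-5p had 0 to 3 counts in each library. The blood list summed to 207.7 and 214.7 in Ctrl and 302 and 432 in DDR-Sen D0, nearly all miR-486-5p, which was higher (202 and 194.5 against 455 and 282 CPM, log2 fold change 0.90 ± 0.39, adjusted p = 0.504). The defining red cell miRNA miR-451a had 1 count in 1 Ctrl library and 0 in both DDR-Sen D0 libraries. The markers of neurons (595 to 860), hepatocytes (15.3 to 124) and muscle (3.21 to 14.3) had groups that overlap. The neuron sum was all miR-128-3p, since miR-124-3p was at 0 in all 4 libraries. The part of other cells in the rise of miR-126-3p and miR-486-5p was not tested.

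Names whose sequences overlap snoRNA or tRNA, listed as a check on RNA fragments, had 6 tested members. One was higher (miR-664a-3p) and 1 lower (miR-1260b), beside 34 of 360 (9.44%) with p below 0.05 in the whole table, 3 estimates were above 0 and 3 below, and the list summed to 224 and 226 CPM in Ctrl and 181 and 219 in DDR-Sen D0. miR-1246 was at 0 in both Ctrl libraries and at 2 and 0 counts in DDR-Sen D0. The median log2 fold change of the list was 0.42, and it was -0.23 with miR-1246 at its bound against the floor of 3 counts.

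Whether the response was shared with the other treatment was asked by testing DDR-Sen D0 against PMD-Sen D0 directly, without Ctrl. In this comparison 13 miRNAs were higher after DXR (3.61% of the 360) and 12 lower (3.33%), and 6 passed an adjusted p of 0.05, 3 in each direction. At adjusted p, DESeq2 gave 9 on all libraries and 3 on the 4 libraries, and 2 passed after thinning to equal totals. The count at adjusted p was 1 without PMD-Sen D0 replicate 1, 4 without PMD-Sen D0 replicate 2, and 2 without either DDR-Sen D0 replicate. It was 4 without either Ctrl replicate, which enter the fit through the shared spread. Leaving out a Ctrl replicate also raised the number of miRNAs tested from 360 to 425 or 427, and which of these changed the count was not tested. The PMD-Sen D0 libraries are the shallowest of the series, with 104439 and 81668 counts, so that a count of 3 there is 27.6 and 33.4 CPM. Their replicates correlated at 0.937 in log2 CPM.

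miR-34a-5p was among the 6. It had 239 and 234 CPM in PMD-Sen D0, below Ctrl, and 502 and 669 CPM in DDR-Sen D0, a log2 difference of 1.30 ± 0.32 (2.47-fold, adjusted p = 0.0245). Set against Ctrl, the SDS libraries had a log2 fold change of -0.57 and the DXR libraries one of 0.73. miR-34c-5p, at 18.4 and 33.4 CPM in PMD-Sen D0, under and at the floor of 3 counts, differed by 1.97 ± 0.70 (adjusted p = 0.156). miR-126-3p, at 18.4 and 44.6 CPM there, the former under the floor, differed by 1.73 ± 0.57 (adjusted p = 0.121). miR-182-5p had 0 and 1 counts in PMD-Sen D0 against 13 and 20 in DDR-Sen D0, the former under the floor.

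Of the lower miRNAs, 3 also differed between the treatments at adjusted p. miR-1260b was at 312 and 268 CPM after SDS and at 27.9 and 33.0 CPM after DXR, on either side of the 73.0 and 91.5 CPM of Ctrl, and the log2 difference of -3.25 ± 0.51 (9.54-fold, adjusted p = 0.000192) was the largest of the 6. miR-296-3p was at 184 and 78.0 CPM after SDS (log2 difference -2.36 ± 0.59, adjusted p = 0.0294), and miR-487b-5p was at 82.7 and 55.7 CPM (-1.97 ± 0.52, adjusted p = 0.0409). Without PMD-Sen D0 replicate 1 the differences of miR-296-3p (-1.54) and miR-487b-5p (-1.59) no longer passed the unadjusted p.

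For the last 2 of the 6 the SDS libraries stood apart and the DXR libraries did not. miR-7-5p had 1207 and 1782 CPM in Ctrl, 1251 and 1176 CPM in DDR-Sen D0 and 395 and 346 CPM in PMD-Sen D0 (log2 difference 1.71 ± 0.41, adjusted p = 0.0245). miR-335-3p had 141.8 and 317.5 CPM in Ctrl, 378 and 180 CPM in DDR-Sen D0 and 18.4 and 66.9 CPM in PMD-Sen D0, the last from 2 and 6 counts (2.78 ± 0.60, adjusted p = 0.0122). Against Ctrl, DXR gave -0.30 ± 0.36 for miR-7-5p and 0.27 ± 0.41 for miR-335-3p.

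Other miRNAs past both thresholds against Ctrl showed no difference between the treatments that passed. miR-212-5p was at 27.6 and 66.9 CPM after SDS, the former at the floor (log2 difference -0.48 ± 0.71). miR-664a-3p was at 211 and 11.1 CPM, the latter under the floor (-0.77 ± 0.55), and miR-4521 at 340 and 279 CPM (-0.67 ± 0.37). miR-222-3p, at 68888 and 48640 CPM after SDS, differed by -0.08 with a 95% interval of -0.40 to 0.24, while miR-221-3p, at 21753 and 22537 CPM, was lower after DXR (-0.50 ± 0.16, adjusted p = 0.117). miR-155-5p was at 7223 and 5729 CPM after SDS (0.09 ± 0.25).

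**Figure D4:**
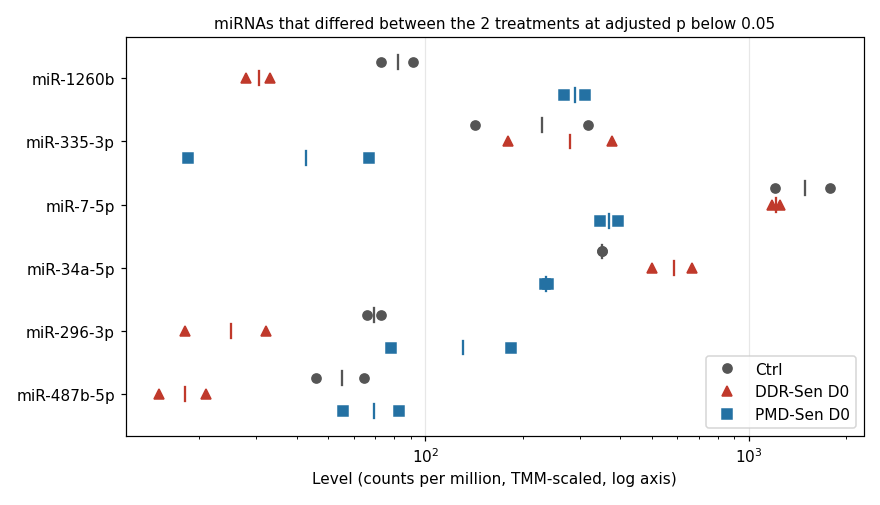
Level of the 6 miRNAs that differed between DDR-Sen D0 and PMD-Sen D0 at an adjusted p below 0.05 (CPM, log axis), with 2 libraries per group and a bar at each mean. miR-34a-5p, miR-1260b and miR-296-3p have DDR-Sen D0 and PMD-Sen D0 on opposite sides of Ctrl, and miR-7-5p and miR-335-3p have PMD-Sen D0 alone below the rest.

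The levels at the end of treatment were set beside those of the 14 libraries from 1 to 16 days after DXR was washed away (DDR-Sen D1 to D16) and those of replicatively senescent cells (RS). All these comparisons use the same 2 Ctrl libraries, so they are not independent, and changes between days were not tested. miR-34a-5p stayed between 416 and 775 CPM in the 14 later libraries, above both Ctrl libraries in all 14, and its log2 fold change was 0.65 at D16 (adjusted p = 0.0871) against 0.73 at D0. miR-34c-5p had 17.8 to 108 CPM in the later libraries, above both Ctrl libraries in 6 of 14, and a log2 fold change of -0.22 at D16 (adjusted p = 0.774). miR-126-3p had 66.6 to 145.8 CPM, above both Ctrl libraries in all 14 (1.64 at D16, adjusted p = 0.00481). miR-335-5p had 946 to 1686 CPM, also above in all 14.

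Some miRNAs had a larger log2 fold change on later days than at D0. miR-664a-3p, at 83.7 and 51.0 CPM at D0, had up to 303 CPM in the later libraries and a log2 fold change of 3.42 at D16. miR-155-5p went from 6490 and 7280 CPM at D0 to as low as 815 CPM, with log2 fold changes of -0.44 at D0, -1.05 at D4 and -3.41 at D16. miR-7-5p, which DXR had not moved past the test at D0, was below both Ctrl libraries in all 14 later libraries (226 to 1111 CPM), with log2 fold changes of -1.67 at D4 and -2.22 at D16. miR-374b-5p went from 0.75 at D0 to 1.98 at D3.

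Others had a smaller one on some later days. miR-222-3p had log2 fold changes of -0.48 at D0, -0.03 at D3, 0.16 at D4 and -0.48 at D16, and miR-24-3p ones of 0.51 at D0 and -0.07 at D4. miR-23b-5p had -1.49 at D0 and -0.09 at D6, and miR-487b-5p -1.60 at D0 and -0.55 at D4. miR-1260b was at 45.1 to 170 CPM in the later libraries, above both its D0 values in all of them. miR-4521 had -1.26 at D0, -0.33 at D3 and -1.42 at D16, and -1.80 in RS.

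**Figure D5:**
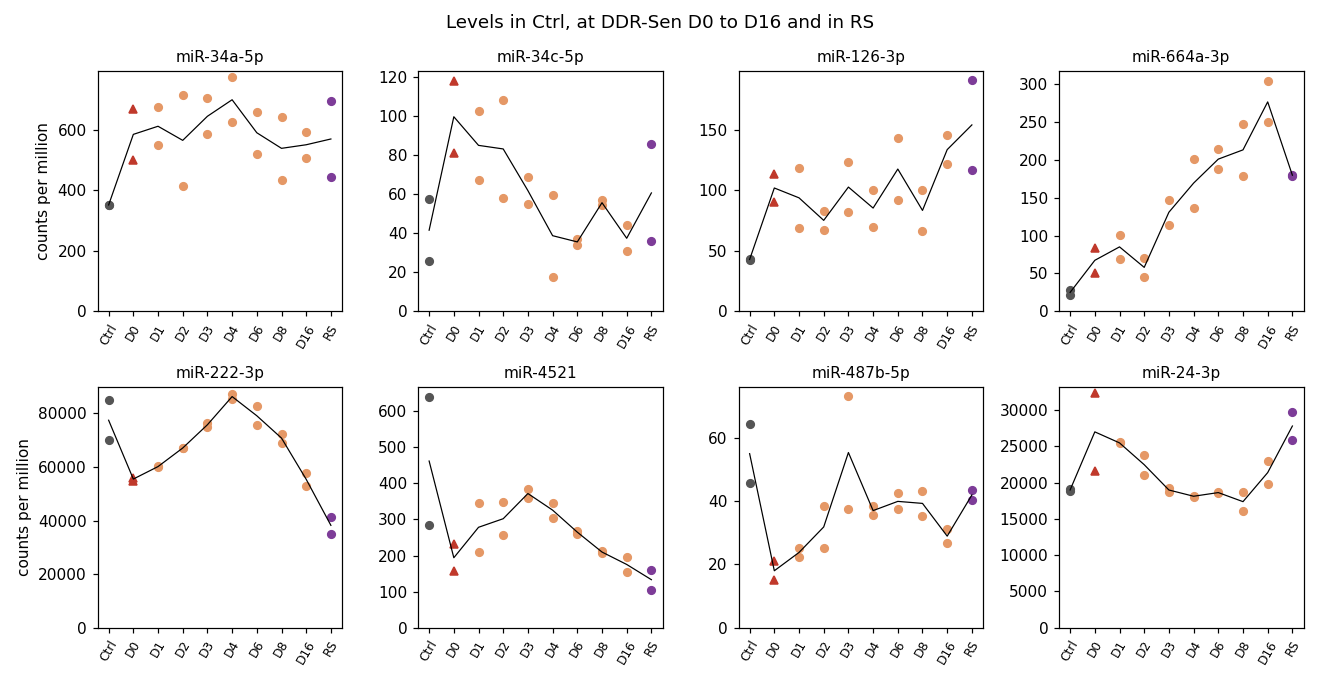
Level of 8 miRNAs (CPM, linear axis from 0) in each library of Ctrl (grey circles), DDR-Sen D0 (red triangles), the later DDR-Sen days (orange circles) and RS (purple circles), with a line through the means of 2 libraries. miR-34a-5p stays above Ctrl at each day, miR-34c-5p does not, miR-664a-3p rises to D16, and miR-222-3p is low at D0 and D16 and near Ctrl at D3 and D4.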

How the data were processed

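Total RNA of WI-38 cells was made into small RNA libraries with a NEXTFLEX kit. Per the study's methods, reads went through exceRpt 4.6.2, which removes adapters, aligns to GRCh38 and assigns reads to miRBase entries. The authors deposited its expected counts without normalization, mostly for mature miRNAs and in some rows under hairpin names. Since reads matching more than one entry are shared out, 1003 of 54288 values are not whole. Counts were rounded.

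edgeR 4.0.16 in R 4.3.3 was run with TMM, filterByExpr over the 18 conditions and the quasi-likelihood F test on all 36 libraries (biological coefficient of variation 20.9%). SEs and 95% intervals are from that fit. DESeq2 1.42.0 and other scalings, filters, depths, a replicate block and leaving out libraries were tried. The procedure was tested on simulated data. Annotation was GENCODE 44. 0 columns were left without a sample.

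Named miRNAs are those past both thresholds, their arms and neighbours within 10000 bases, the 10 most abundant, all p53-induced members, up to 4 abundant members of each list, and miR-155-5p. Others are said to be named after their values were seen, or passed a test named beside them. The members and lists were chosen with earlier results of these data known.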

Additional observations from a re-analysis of the deposited data

Results flagged for a closer look

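Each of these 6 miRNAs was picked out because the effects of DXR and SDS at the end of treatment differed in the direct test of DDR-Sen D0 against PMD-Sen D0 (edgeR, adjusted p below 0.05). The log2 differences were -3.253 for miR-1260b, 2.78 for miR-335-3p, 1.708 for miR-7-5p, 1.303 for miR-34a-5p, -2.36 for miR-296-3p and -1.965 for miR-487b-5p. The PMD-Sen D0 libraries gave these miRNAs from 2 counts (miR-335-3p) to 43 counts (miR-7-5p) per library. After the compared libraries were thinned to equal totals, unadjusted p was below 0.05 for all 6, but only 2 miRNAs of the whole comparison passed the adjusted p, and 1 did without PMD-Sen D0 replicate 1.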

How the results depend on the processing

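Of 992 values for 77 named miRNAs under 13 alternatives to the comparison with Ctrl, 37 turned sign, in 19 miRNAs, and none of the 34 with p below 0.05 did. The counts past both thresholds, 8 higher and 6 lower, became 0 and 0 at adjusted p, where 1 miRNA passed without Ctrl replicate 1. The higher count was 14 with no filter, 5 with DESeq2 on all libraries, and 1 (with 1 lower) with DESeq2 on the 4 libraries. The lower count was 10 with total counts and 13 after thinning to equal totals, where 5 of the 14 were shared. Leaving out 1 library gave 5 to 10 higher and 5 to 12 lower, with 6 of the 14 shared without Ctrl replicate 1, 8 without Ctrl replicate 2, and 7 without either DDR-Sen D0 replicate. These fits tested 416 to 428 miRNAs, and the lone library is assumed to vary like the other groups. Against PMD-Sen D0, 13 higher and 12 lower became 3 and 3 at adjusted p, 21 higher with no filter, 7 lower with a mean of at least 10 counts, and 6 and 4 with DESeq2 on the 4 libraries, and 14 to 19 and 9 to 16 without 1 library. The cause was not tested.

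The replicate numbers were not used as pairs in the main fit. The deviations of same-numbered Ctrl and DDR-Sen D0 libraries correlated at -0.034, and those of PMD-Sen D0 and DDR-Sen D0 at -0.249. Over the 153 pairs of conditions the correlations ran from -0.458 to 0.366, with 53 above 0.1. Such values cannot show whether same-numbered libraries were prepared together. With the replicate block the counts were 8 and 6, and 13 and 12 against PMD-Sen D0.

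Signs turned with total counts for let-7a-5p (-0.023), let-7e-5p (-0.027) and miR-100-5p (-0.0031), after thinning for miR-222-5p (1.30) and miR-15b-5p (0.17), and for miR-493-5p with no filter (0.023) and with DESeq2 on the 4 libraries (0.0048). They turned when 1 library was left out for miR-192-5p (-0.46 to 0.13), miR-34b-3p (-0.75 to 6.58), miR-143-3p (-0.022 to 0.25), miR-199a-3p (-0.14 to 0.60), miR-16-5p (-0.10 to 0.37), miR-145-5p (-0.13 to 0.064), miR-17-5p (-0.61 to 0.28), miR-222-5p (-0.97 to 0.83), let-7a-5p (-0.36 to 0.44), let-7f-5p (-0.087 to 0.68), let-7e-5p (-0.16 to 0.28), let-7b-5p (-0.38 to 0.27), miR-503-5p (-0.050 to 0.027), miR-15b-5p (-0.36 to 0.29), miR-30d-5p (-0.24 to 0.13), miR-4286 (-1.19 to 0.11), miR-493-5p (-0.53 to 0.42), miR-370-3p (-0.21 to 0.037) and miR-100-5p (-0.029 to 0.21). Low counts limit the scarce miRNAs.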
